A study of Mus musculus with 7 samples.

Results

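The genes of prostaglandin synthesis, breakdown and reception were followed in cancer-associated fibroblasts (CAFs) of mouse pancreatic tumors. They were chosen by symbol: Ptgs1, Ptgs2, Ptges, Ptgis, Ptger2, Ptger3, Ptger4, Ptgfr, Ptgir and Hpgd. Of these 10 genes, 9 were analysed, out of 12771 genes in the count table, and Ptgfr was not analysed here. CAFs were live podoplanin-positive cells, sorted as negative for CD45, CD31 and EpCAM, and the 3′ ends of their poly(A) RNA were sequenced. Tumors were grown for 2-3 weeks in the pancreas of male C57BL/6 mice (C57BL/6 J in the study's methods), aged 8 weeks at injection, from KPC cells, which are a cancer line of the mouse pancreas. The cancer cells carried a lentiviral hairpin against Brca2 (shBrca2, 4 mice) or a non-targeting hairpin in the same kind of vector (shControl, 3 mice). Both lines went through puromycin selection. Fibroblasts of the host carried no hairpin, so the comparison asks how silencing of Brca2 in 1 cancer line changes the stroma beside it. Whether every sorted cell came from the host was not tested.

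Prostaglandins are lipid signals made from arachidonic acid. Phospholipases and monoacylglycerol lipase free the fatty acid, and the cyclooxygenases COX1 (Ptgs1, steadily expressed in many tissues) and COX2 (Ptgs2, induced by inflammation and growth factors) turn it into an unstable intermediate. Terminal synthases then set the product: the enzyme of Ptges makes PGE2, and that of Ptgis makes prostacyclin. PGE2 acts on receptors that include EP2, EP3 and EP4 (Ptger2, Ptger3, Ptger4), prostacyclin acts on IP (Ptgir), and the dehydrogenase of Hpgd starts their breakdown. EP2, EP4 and IP raise cyclic AMP in the cell, and the main forms of EP3 lower it. PGE2 from stromal cells is known for restraining T cells in tumors, and prostacyclin for relaxing vessels and keeping platelets quiet.

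Promoters are shown for the cyclooxygenase pair, which share a reaction but differ in how they are switched on, and for Ptges and Ptgir, the members whose difference held in every fit described below. The sequences are RefSeq's for GRCm38.p6, the assembly behind mm10, run 5′ to 3′ on the gene's strand and cover 250 bases before to 50 bases after the listed start. For Ptgs1 and Ptges the listed start lies inside the gene span given below, so a start at the 5′ end of that span is not covered. They lie at chr2:36230176-36230475 on the plus strand for Ptgs1, chr1:150099781-150100080 on the plus strand for Ptgs2, chr2:30903248-30903547 on the minus strand for Ptges and chr7:16906240-16906539 on the plus strand for Ptgir. Capitals mark the motifs that were searched on both strands, a TATA box (TATAAA), a GC box (GGGCGG), an E-box (CACGTG), a half-site for CREB (ACGTCA), the C/EBP palindrome (TTGCGCAA) and the EGR1 site (GNGTGGGCG).
Ptgs1: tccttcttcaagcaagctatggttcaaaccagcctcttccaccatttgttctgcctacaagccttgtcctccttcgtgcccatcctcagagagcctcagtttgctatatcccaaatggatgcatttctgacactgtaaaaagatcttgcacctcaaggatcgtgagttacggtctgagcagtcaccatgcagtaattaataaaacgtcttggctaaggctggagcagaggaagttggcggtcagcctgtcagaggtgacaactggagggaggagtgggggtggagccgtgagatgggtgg
Ptgs2: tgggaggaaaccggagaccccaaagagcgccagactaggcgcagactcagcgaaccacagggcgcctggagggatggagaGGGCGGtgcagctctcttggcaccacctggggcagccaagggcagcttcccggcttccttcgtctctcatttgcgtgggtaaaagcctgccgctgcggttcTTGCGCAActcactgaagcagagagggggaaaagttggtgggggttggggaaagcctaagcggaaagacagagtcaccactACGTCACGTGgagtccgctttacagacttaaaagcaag
Ptges: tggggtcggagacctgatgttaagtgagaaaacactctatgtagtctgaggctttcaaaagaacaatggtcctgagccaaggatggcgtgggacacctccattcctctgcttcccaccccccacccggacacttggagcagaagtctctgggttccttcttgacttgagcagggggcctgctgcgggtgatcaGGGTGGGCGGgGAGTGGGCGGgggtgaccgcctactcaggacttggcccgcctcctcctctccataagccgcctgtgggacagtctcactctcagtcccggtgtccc
Ptgir: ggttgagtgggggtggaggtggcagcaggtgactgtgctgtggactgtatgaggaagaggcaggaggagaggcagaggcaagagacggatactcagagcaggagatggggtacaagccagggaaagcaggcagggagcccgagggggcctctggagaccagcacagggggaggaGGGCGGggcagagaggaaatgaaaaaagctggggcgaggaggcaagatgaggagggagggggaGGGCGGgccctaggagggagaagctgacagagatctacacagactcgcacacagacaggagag

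The Ptgs2 window held the C/EBP palindrome, which 0.183% of 32851 RefSeq promoter windows of this length contain. It also held a GC box, the CREB half-site and the E-box. The last pair overlap each other and are found in 7.51% and 7.15% of windows. The Ptges window held a pair of EGR1 sites, starting at -57 and -46 from the listed start, each overlapping a GC box. An EGR1 site was present in 2.93% of all windows. Ptgir had 2 GC boxes, a motif found in 7 of the 9 member promoters that RefSeq lists and in 35.7% of all windows. The Ptgs1 window held none of the 6 motifs, and no window was listed for Ptgis. These are letter matches, and binding was not measured.

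Between the groups, 5 of the 9 genes were called: Ptgs1, Ptgis and Ptger3 higher, Ptges and Ptgir lower in CAFs of shBrca2 tumors. A call needed a Benjamini-Hochberg adjusted p under 0.1 in DESeq2's likelihood ratio test, an absolute log2 fold change over 0.5 and a mean normalized count over 5. Of all genes tested, 9.04% were called, 3.77% higher and 5.27% lower. The groups did not overlap for 5 of the 9 genes (Ptgs1, Ptges, Ptgis, Ptger2 and Ptgir), against 17.1% of all genes. edgeR called 3 of the 9 (Ptges, Ptgir and Ptger3) against 8.74% of all genes, and a DESeq2 fit with the replicate number as a block called the same 3 against 3.84%. Only Ptges and Ptgir were called in all 13 alternative fits, whereas the 3 increases were each lost in several. Normalized counts are raw counts divided by a library's size factor, values after ± are SDs unless given as standard errors (SE), and fold changes are shBrca2 over shControl. Values of single libraries are given in the order of replicates 1, 2 and 4 for shControl and 1 to 4 for shBrca2. Total counts ran from 1898679 to 5990579 per library, and the ranges of the groups overlapped.

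**Figure D1:**
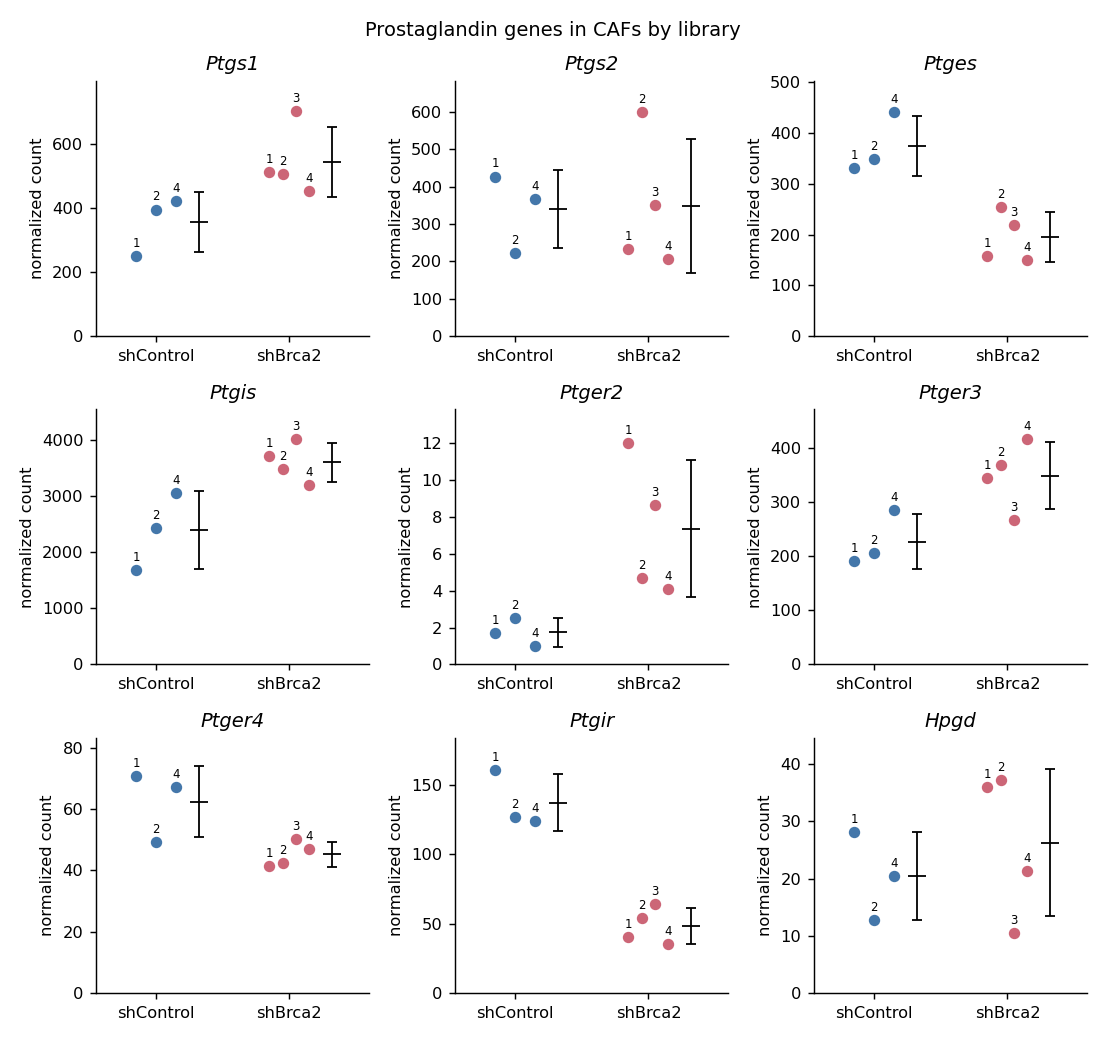
Normalized counts (vertical axes, linear, from 0) of the 9 analysed genes in CAFs of shControl (blue) and shBrca2 (red) tumors. Each point is a library with its replicate number, and black bars give the mean and SD of 3 and 4 libraries. Ptges and Ptgir lie lower in every shBrca2 library than in any control, while Ptgs2 and Hpgd overlap.

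The cyclooxygenases came first in the pathway. Ptgs1 (GRCm38.p6 chromosome 2, 36216742 to 36258593) had 249, 396 and 424 normalized counts in shControl CAFs, against 512, 508, 703 and 455 in shBrca2 CAFs. Every shBrca2 library lay above every control, with the smallest gap between shBrca2 replicate 4 and shControl replicate 4. Ptgs1 rose from 357 ± 93.8 (n = 3) to 545 ± 109 (n = 4), a log2 fold change of 0.61 ± 0.23 (SE; DESeq2 adjusted p = 0.098). This call sat at the threshold. The log2 fold change was 0.40 without shControl replicate 1, where the gene was lowest (DESeq2 adjusted p = 0.48), and 0.47 without shBrca2 replicate 3, where it was highest (0.25). It was called in only 2 of the 7 fits that left out a library, and not by edgeR (adjusted p = 0.12).

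Ptgs2 (chromosome 1, 150100031 to 150108234), the inducible enzyme, did not separate the groups. It had 427, 223 and 368 normalized counts in shControl CAFs, against 232, 599, 351 and 206 in shBrca2 CAFs. The highest and the lowest of the 7 libraries were both shBrca2 libraries. Means were 339 ± 105 (n = 3) and 347 ± 179 (n = 4). The log2 fold change was 0.03, its 95% confidence interval -0.66 to 0.72 (DESeq2 adjusted p = 0.96). These libraries did not exclude a change anywhere in that interval. The sign turned to -0.38 without shBrca2 replicate 2. Per library, the ratio of Ptgs2 to Ptgs1 counts was 1.71, 0.564 and 0.867 in the controls, and 0.455, 1.18, 0.5 and 0.454 in the shBrca2 libraries. In 3 of 4 shBrca2 libraries it was below every control, and in replicate 2 it was not. These are RNA counts, so the ratio is read between groups and not as the relative amount of the enzymes.

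The terminal synthases moved in opposite directions. Ptges (chromosome 2, 30889471 to 30931020), the microsomal PGE2 synthase, had 331, 349 and 442 normalized counts in shControl CAFs, against 157, 254, 218 and 150.4 in shBrca2 CAFs. The lowest control was above the highest shBrca2 library. The gene fell from 374 ± 59.5 (n = 3) to 195 ± 49.7 (n = 4), 1.92-fold lower, with a log2 fold change of -0.94 ± 0.23 (SE; DESeq2 adjusted p = 0.0018). Leaving out a library gave log2 fold changes from -1.11 to -0.80 with DESeq2 adjusted p from 9.0e-05 to 0.036, and edgeR gave an adjusted p of 0.021.

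Ptgis (chromosome 2, 167203194 to 167252150), the prostacyclin synthase, went the other way. Its normalized counts were 1689.6, 2440.3 and 3067 in shControl CAFs, against 3725, 3485, 4021 and 3199 in shBrca2 CAFs. The groups were apart, but shControl replicate 4 came close to shBrca2 replicate 4. The controls spread more, with an SD of 28.8% of their mean against 9.69% in shBrca2. Ptgis rose 1.5-fold, with a log2 fold change of 0.59 ± 0.21 (SE; DESeq2 adjusted p = 0.066). It was not called without shControl replicate 1 (log2 fold change 0.39, DESeq2 adjusted p = 0.38), in 3 other fits that left out a library, or by edgeR (adjusted p = 0.11). Within each library, where scaling plays no part, the count ratio of Ptgis to Ptges was 5.1, 6.97 and 6.93 in the controls and 23.7, 13.7, 18.3 and 21.1 in shBrca2 CAFs. The mean log2 ratio was 2.65 ± 0.26 (n = 3) and 4.24 ± 0.34 (n = 4), a difference of 1.59. This ratio was chosen after the values were seen and is given without a test.

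Of the receptors, Ptgir (chromosome 7, 16906490 to 16910905), the prostacyclin receptor, had the smallest p. It had 161, 127 and 124 normalized counts in shControl CAFs, against 40.4, 54.2, 63.9 and 35.6 in shBrca2 CAFs. All 4 shBrca2 libraries were far under the lowest control. The gene fell from 137 ± 20.6 (n = 3) to 48.5 ± 12.9 (n = 4), 2.86-fold lower, with a log2 fold change of -1.52 ± 0.26 (SE; DESeq2 adjusted p = 5.8e-07). By p it ranked 53 of 12768 tested genes. Without single libraries the log2 fold change stayed between -1.64 and -1.38, and the DESeq2 adjusted p was 0.00056 at most. The synthase of prostacyclin and its receptor thus differed in opposite directions in the same libraries: the count ratio of Ptgis to Ptgir was 10.5, 19.1 and 24.6 in the controls and 61.3 or more in every shBrca2 library. That ratio was also chosen after the values were seen.

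Among the PGE2 receptors, Ptger3 (chromosome 3, 157566821 to 157644758), which encodes EP3, was called higher. Its normalized counts were 191, 205 and 285 in shControl CAFs, against 345, 368, 266 and 416 in shBrca2 CAFs. The groups overlapped, since shBrca2 replicate 3 was under shControl replicate 4. The rise from 227 ± 50.6 (n = 3) to 349 ± 62.5 (n = 4) gave a log2 fold change of 0.62 ± 0.22 (SE; DESeq2 adjusted p = 0.059). In the fits that left out a library it was called only without shControl replicate 4 and without shBrca2 replicate 3, which are the overlapping libraries (DESeq2 adjusted p = 0.019 in both). Without shControl replicate 1 its DESeq2 adjusted p was 0.35. edgeR also called it (adjusted p = 0.086).

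Ptger4 (chromosome 15, 5233399 to 5244187), which encodes EP4, did not pass. It had 62.5 ± 11.5 normalized counts in shControl (n = 3) and 45.2 ± 4.02 in shBrca2 (n = 4). The log2 fold change was -0.49, its 95% confidence interval -1.0 to 0.02 (DESeq2 adjusted p = 0.3). Individual values were 70.9, 49.3 and 67.1 in shControl CAFs, against 41.3, 42.5, 50.1 and 46.8 in shBrca2 CAFs, so that shBrca2 replicate 3 reached just above shControl replicate 2. Ptger2 (chromosome 14, 44988111 to 45003820), which encodes EP2, was near the limit of detection, with 1 to 2 raw counts in each control and 4 to 14 in each shBrca2 library. Its normalized counts were 1.71, 2.53 and 0.973 in shControl and 12, 4.66, 8.64 and 4.07 in shBrca2. In total there were 5 raw counts against 31, a ratio of 4.47 per total count with an exact 95% interval of 1.72 to 14.7. That interval covers counting error only, takes each count as a separate molecule and leaves out the spread between mice. The groups did not overlap, but the mean normalized count of 4.95 was under the minimum for a call (DESeq2 adjusted p = 0.15).

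Hpgd (chromosome 8, 56294552 to 56321046), which inactivates prostaglandins, was low and variable. It had 28.2, 12.7 and 20.4 normalized counts in shControl CAFs, against 36.1, 37.3, 10.4 and 21.3 in shBrca2 CAFs. The groups overlapped over most of their range. The log2 fold change was 0.39 with a 95% confidence interval of -0.5 to 1.29 (DESeq2 adjusted p = 0.74), and it had only 6 to 64 raw counts per library. The ratio of Ptgs2 to Hpgd counts ran from 14.7 to 17.2 in the controls and from 6.3 to 29.1 in the shBrca2 libraries.

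**Figure D2:**
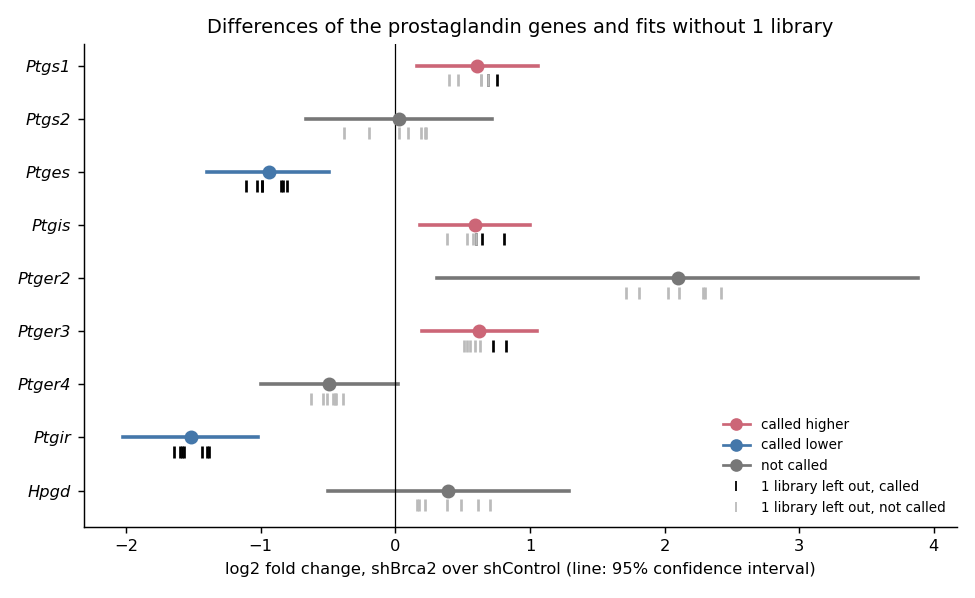
Log2 fold changes of the 9 genes (horizontal axis, shBrca2 over shControl) as points with 95% confidence intervals, red for called higher, blue for called lower and gray for not called. Ticks under each line are the 7 fits that each leave out 1 library, black where the gene was called, and they stay black throughout for Ptges and Ptgir alone.

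To place these genes in their pathway, 65 further genes were listed by role. Of these, 54 were analysed and 51 had a mean normalized count over 5. Among the 51, Mgll was called higher and 4 were called lower, 5 calls in all, close to the share over all genes at that level (1154 of 11629). Over all 51 the median log2 fold change was -0.22, against 0 over all 11629 genes tested at that level. The 19 enzymes, transporters and receptors among them held 1 call higher and 2 lower.

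Upstream of the cyclooxygenases, the calls were Mgll and Pla2g15. Mgll encodes monoacylglycerol lipase, which frees arachidonic acid from an endocannabinoid. It had 41, 75.9 and 50.6 normalized counts in shControl CAFs, against 202, 152, 216 and 213 in shBrca2 CAFs. The groups were far apart, and Mgll rose 3.54-fold, with a log2 fold change of 1.82 ± 0.26 (SE; DESeq2 adjusted p = 3.5e-09). Pla2g15, a lysosomal phospholipase, fell from 400.4 ± 52.9 (n = 3) to 213 ± 34 (n = 4), or -0.91 in log2 fold change (DESeq2 adjusted p = 0.00014) and no overlap. Both were called in all 13 alternative fits. Pla2g4a, the cytosolic phospholipase that classically supplies the cyclooxygenases, stood at 87.1, 43 and 70 in the controls against 89.5, 97.9, 58.7 and 97.6 in shBrca2 CAFs, and did not pass (log2 fold change 0.37, DESeq2 adjusted p = 0.58).

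None of the 4 other terminal synthases with a mean over 5 was called. Akr1b8, an aldo-keto reductase and the gene with the most counts among them, had 656 ± 118 (n = 3) and 557 ± 70.5 (n = 4). The transporters Slco2a1, which takes prostaglandins into cells, and Abcc4 were not called either, with Slco2a1 at 50.9 ± 26.1 and 78.8 ± 18.3 (log2 fold change 0.62, DESeq2 adjusted p = 0.37). In breakdown, 1 of 4 genes was called. Zadh2, a prostaglandin reductase, was at a log2 fold change of -0.60 ± 0.21 (SE; DESeq2 adjusted p = 0.055), and was lost in 6 of the 7 fits that left out a library. Cbr1, a carbonyl reductase with the most counts of the 4, had 242 ± 29.9 and 205 ± 9.74 and did not pass. Of the 3 other receptor genes, Ptgfrn, a protein that binds the receptor of prostaglandin F2, was lower in all 4 shBrca2 libraries (653 ± 72.1 against 474 ± 12.1). Its DESeq2 adjusted p was 0.025, but its log2 fold change of -0.46 was short of 0.5.

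In the lipoxygenase branch, which uses the same arachidonic acid, 1 of 5 genes was called. Ltc4s, the leukotriene C4 synthase, had 74.3, 35.4 and 58.4 normalized counts in shControl CAFs, against 7.75, 23.9, 15.5 and 8.13 in shBrca2 CAFs. The groups were apart, and the gene was 3.99-fold lower in shBrca2 (DESeq2 adjusted p = 0.00034). The call held in all 13 alternative fits. Lta4h, which makes leukotriene B4 from the same precursor, had 240.0 ± 19.5 and 228 ± 13.6 and did not pass.

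The inducers and brakes of Ptgs2 and the genes that respond to cyclic AMP held 1 call in all, where 9.04% of all genes tested were called. Of 16 inducers and brakes with a mean over 5, Cebpd, a C/EBP transcription factor, was called lower (31.9 ± 14.7 against 13.7 ± 5.18, log2 fold change -1.31, DESeq2 adjusted p = 0.056). The groups overlapped, and Cebpd was not called in 5 of the 7 fits that left out a library. Cebpb, its relative, stood at 1885, 2330.3 and 2943 in the controls against 2509, 2876, 2033 and 2388 in shBrca2 CAFs. Egr1, whose site occurs in the Ptges window, had 9071 ± 1811 (n = 3) and 6361 ± 1270.0 (n = 4) and did not pass (log2 fold change -0.51, DESeq2 adjusted p = 0.13). The receptor genes Il1r1 (log2 fold change 0.38, DESeq2 adjusted p = 0.095) and Tnfrsf1a (-0.43, 0.032) did not overlap between the groups. Both passed the adjusted p but were short of 0.5 in size. In all, 6 of the 16 did not overlap, in both directions, against 2008 of all 11629 genes at that level. None of the 11 cyclic AMP-responsive genes was called, with log2 fold changes from -0.29 to 0.64, and Nr4a1, the one with the most counts, was at -0.29 ± 0.22 (SE).

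**Figure D3:**
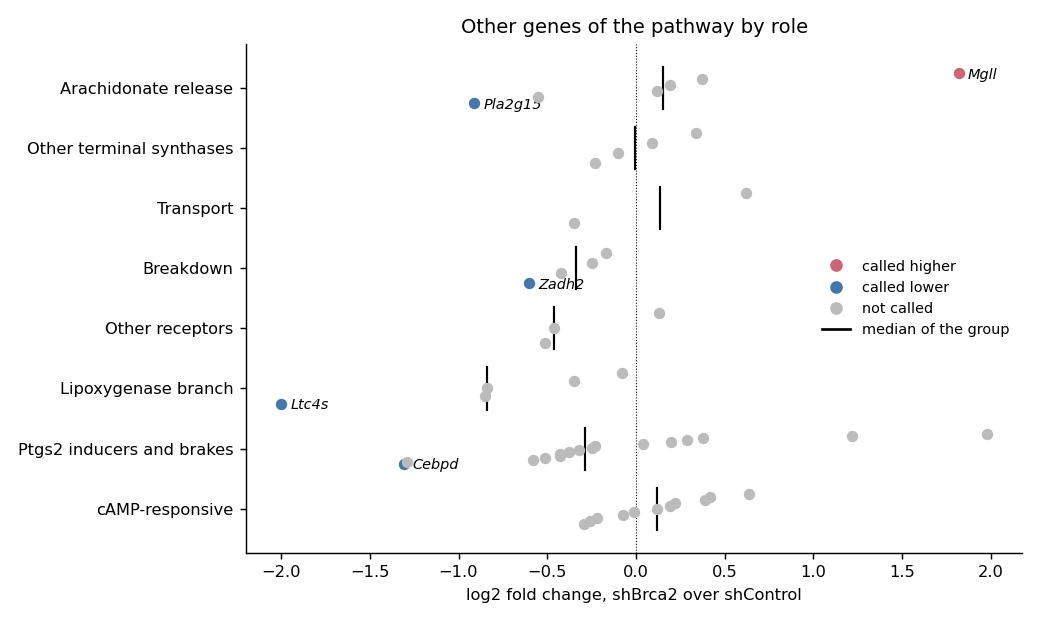
Log2 fold changes (horizontal axis, shBrca2 over shControl) of the 51 other pathway genes with a mean normalized count over 5, grouped by role, with 1 point per gene and a black line at each group's median. Called genes are colored and named: Mgll to the right, and Pla2g15, Zadh2, Ltc4s and Cebpd to the left.

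The sorted cells were checked against marker lists, each summed per library as CPM (counts scaled to a common library total). All 8 fibroblast markers were present, with sums from 35329.8 to 39565 in shControl and from 30625 to 34085 in shBrca2, lower without overlap. Sums were higher without overlap in shBrca2 for the epithelial list (117 to 330.4 against 420.0 to 647), the pericyte and smooth muscle list (229.5 to 375 against 409 to 559) and the immune list (69.6 to 81.4 against 118 to 137). Members of these lists, the fibroblast list included, did not all move with the sum. In the fibroblast list Dcn and Lum were called lower (log2 fold changes -0.77 and -1.18), while the others ran from -0.44 to 0.01 without a call. In the epithelial list Krt7, Krt8, Krt18 and Krt19 were called higher. Cdh1 went the same way at 1.59 but was not called (DESeq2 adjusted p = 0.19), and Muc1 alone was flat at 0.01. In the immune list Csf1r and C1qa were called higher (log2 fold changes 1.15 and 1.65), while Lyz2 and Cd68 were at -0.26 and -0.32 without a call. S100a8 and S100a9 were at 2.58 and 2.25 with SEs of 1.17 and 1.5, and were not called. In the pericyte list Acta2, Des and Notch3 were called higher, while Abcc9, Kcnj8 and Myh11 were at -0.32, -0.13 and -0.11 without a call. Rgs5, Mcam and Cspg4 of the same list were at 0.59, 0.49 and 0.25, also without a call. Endothelial (20.2 to 36.2 against 29 to 45.1) and mast cell and platelet sums (24.5 to 26.8 against 22.5 to 31.6) overlapped. Epcam, Cdh5 and Ptprc, defining markers of epithelial, endothelial and immune cells, were not analysed here. Mesothelial sums were 293, 465 and 994 in shControl CAFs, against 819 to 1024 in shBrca2. This overlap rested on shControl replicate 4. Without that library 6 of the 9 mesothelial genes were called higher, against 0 or 1 in every other fit. Among the controls the mesothelial and epithelial sums, Ptgs1, Ptgis and Ptger3, but also Ptges, which was called lower, were lowest in replicate 1 and highest in replicate 4. Within shBrca2 the epithelial sum was highest in replicate 4 (647), where Ptger3 was highest (416) but Ptgs1 and Ptgis were lowest. There the mesothelial sum was highest in replicate 3 (1024), where Ptgs1 (703) and Ptgis (4021) were highest but Ptger3 was lowest (266). The adventitial fibroblast list was lower without overlap (2016 to 3626 in shBrca2 against 5041 to 8939 in shControl), and all 8 of its genes were called lower, in the direction of Ptges and Ptgir. By library its sums were 8939, 5041 and 7559 in shControl and 2215, 3626, 2595 and 2016 in shBrca2. Within shBrca2 that was the order of Ptges but not of Ptgir, and among the controls it was the order of neither. With the replicate block 4 of the 8 were called (Cd248, Col14a1, Dpp4 and Pi16), and Cd34 was also lost in 4 of the fits that left out a library. The part of these lists in the differences of the prostaglandin genes was not tested, and in sorted bulk RNA fewer cells of a type cannot be told apart from less RNA per cell. The early response list, which can rise when tissue is digested, overlapped between the groups (14630.3 to 18008 against 14469 to 19109), and none of its 10 genes was called.

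**Figure D4:**
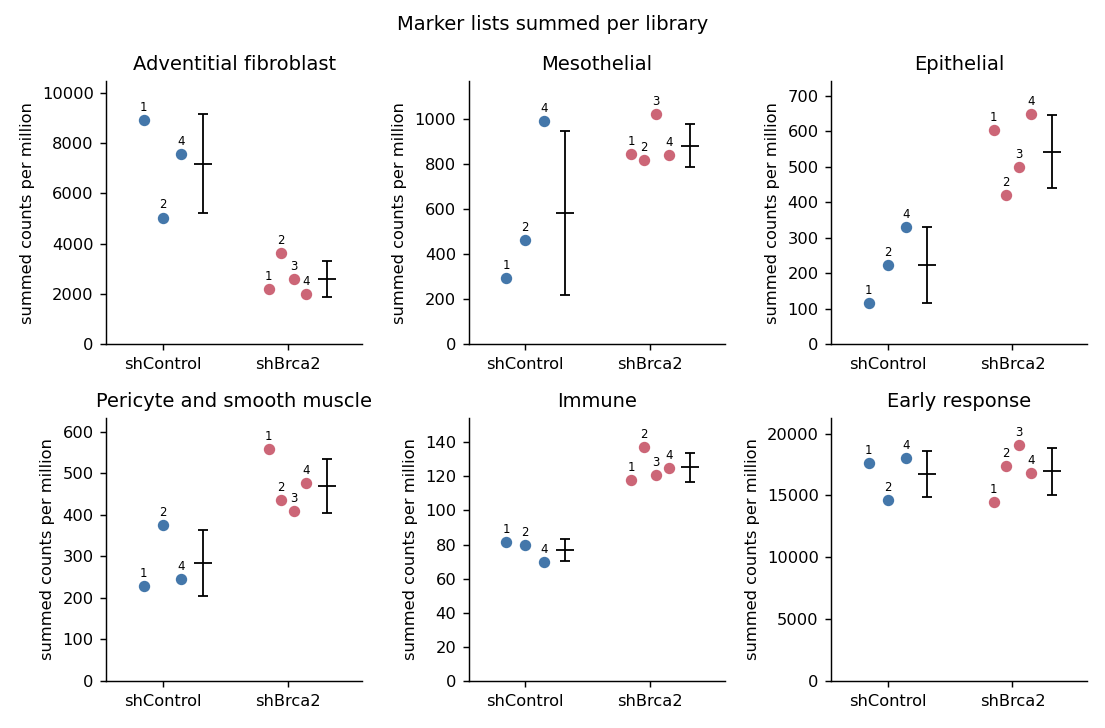
Summed CPM (vertical axes, linear, from 0) of 6 marker lists in each library, with replicate numbers and the mean and SD of each group in black. The adventitial list is lower in all 4 shBrca2 libraries, the epithelial, pericyte and immune lists are higher, and the mesothelial and early response lists overlap.

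The genes whose pattern over the 7 libraries was most like that of each called member were ranked by Pearson correlation of log2(normalized count + 1), among 6734 genes with a mean of at least 50. Ptges was closest to Shc2, Aebp1 and Mavs (r = 0.993, 0.993 and 0.992), and Ptgir to Ksr1, Lima1 and Lrrc17 (0.992, 0.989 and 0.989). Of these 6, Shc2, Aebp1, Ksr1 and Lrrc17 were called lower. Ptgs1 was closest to Slc39a8, Adgrb2 and Abcb1a (0.994, 0.994 and 0.980), and Ptgis to Sema3f, Mapkapk3 and Cd14 (0.996, 0.994 and 0.992), all 6 called higher. Ptger3 was closest to Mri1, Auh and Nup88 (0.977, 0.964 and 0.963), of which Mri1 was called higher. All points come from the same 7 libraries, and the values are a description.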

How the data were processed

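Poly(A) RNA of sorted CAFs was sequenced by a variant of MARS-seq in 3 shControl and 4 shBrca2 libraries, each from 1 mouse by the study's methods. The authors deposited raw counts per gene symbol, which are whole numbers with no normalization. The submitters' processing notes name bcl2fastq, cutadapt, STAR 2.4.2a, HTSeq, DESeq2 and mm10. Annotation, strand setting and collapsing of molecular barcodes were not given in the sources used here, so counts may include PCR copies. In GENCODE vM39 (GRCm39) exons of Ptgs1, Ptgs2, Ptges, Ptgis, Ptger2 and Ptger4 overlap antisense genes by 148 to 1151 bases, which leaves those counts uncertain.

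Groups followed the labelled status of the KPC cells. DESeq2 1.42.0 (R 4.3.3) was fitted on all 12771 genes with a likelihood ratio test (group against intercept alone, no covariate), and p was adjusted over all genes with a p. The code was tested on simulated data. Named genes were all members, called genes and the gene with the most counts in each role group, and the 3 most similar genes of each called member. Others (Pla2g4a, Cebpb, Il1r1, Tnfrsf1a and those of the last part) were picked after their values were seen. Members and lists were chosen with earlier results of these data known. Alternatives were edgeR 4.0.16 (quasi-likelihood, TMM), the Wald test, TMM size factors, a filter (count of 10 or more in 3 libraries), no filtering or Cook's cutoff, the replicate number as a block, and each library left out.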

Additional observations from a re-analysis of the deposited data

Results flagged for a closer look

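In shBrca2 CAFs the log2 ratio of Ptgs2 to Ptgs1 counts had 1 library apart from the rest of its group. Replicate 2 stood at 0.236 and the next library at -1, a gap of 0.899 of the whole range, above Dixon's 95% limit for 4 samples. Of the 25 groups of 4 values examined in this way 1 stood out, and chance gives about 1 in 20.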

How the results depend on the processing

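Ptges and Ptgir were called in all 13 alternative fits. With edgeR 1 member was called higher (Ptger3), since Ptgs1 (log2 fold change 0.60, adjusted p = 0.12) and Ptgis (0.58, adjusted p = 0.11) were lost. Leaving out single libraries gave 0 to 3 members called higher and 2 lower. Log2 fold changes then ran from 0.40 to 0.76 for Ptgs1, 0.39 to 0.80 for Ptgis, 0.51 to 0.82 for Ptger3 and -0.38 to 0.23 for Ptgs2, which was negative without shControl replicate 2 (-0.20) and without shBrca2 replicate 2 (-0.38). In the same fits 1 to 2 other pathway genes were called higher and 2 to 8 lower, 5 to 11 marker genes higher, and 615 to 1305 genes over the table, 261 to 610 higher and 354 to 695 lower. The fewest were called without shBrca2 replicate 1. Each of these fits has 1 sample fewer, and beyond that the cause was not tested.

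Replicate numbers do not mark a stated pairing. Deviations of same-numbered libraries correlated at -0.13, -0.171 and -0.183, and no library correlated best with its own number. With the replicate number as a block, 491 genes were called (211 higher, 280 lower), 1 member higher (Ptger3), 2 other pathway genes lower and 4 marker genes lower. Ptgs1 (0.50, DESeq2 adjusted p = 0.49) and Ptgis (0.57, 0.31) were not called, and Ptgs2 was at -0.13. Replicate 3 existed only in shBrca2, so that library did not inform the group difference in this fit. The cause of the lost calls was not tested. Ptger2, with 1 to 14 raw counts per library, and Hpgd, with 6 to 64, rest on few counts.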

Other observations

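In shBrca2 replicate 2, where Ptgs2 was highest at 599 normalized counts, some other rapidly induced genes of the lists, among them Nr4a3 and Lif, were high as well. Nr4a3, a nuclear receptor induced by cyclic AMP, had 1459.5 normalized counts there, against 519 to 641 in the other shBrca2 libraries and 751 to 919 in the controls. Lif, a cytokine of the interleukin-6 family, had 402 there, 124 to 144 in the other shBrca2 libraries and 138 to 225 in the controls. Not all such genes were: Nr4a1 (8225) and Egr1 (6797) were lower there than in shBrca2 replicate 3 (8413 and 7794). The early response list as a whole was not raised in shBrca2 replicate 2. These genes were picked after their values were seen, and their relation to Ptgs2 was not tested.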
